A study of Mus musculus with 47 samples.

Results

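The cytochrome P450 genes were taken as every gene of the deposited count table whose symbol begins with Cyp followed by a digit. This gave 97 of 20456 genes, all annotated as protein coding. Of these, 75 passed the filter on low counts and were tested among 16892 genes, and the other 22 had at most 15 reads in any library. RNA-seq was performed on livers, lungs and brains of C57BL/6 mouse embryos at E18.5, just before birth. S226A embryos were homozygous for a Daxx allele designed to disrupt the interaction of the histone chaperone Daxx with histone H3.3. Y130A embryos were homozygous for an allele designed to disrupt the interaction of Daxx with Atrx. Both knock-in alleles were made in C57BL/6N zygotes, carry silent changes beside the point mutation, act in every cell, and were backcrossed 2 times to C57BL/6J. Heterozygous parents were intercrossed, and each mutant had wild-type (WT) littermates as controls. Per the paper, embryos were 2 males and 2 females, matched by sex and litter, and the labels do not give the sex. Each of the 12 groups held 4 libraries except the WT lungs of the Y130A litters, with 3, for 47 libraries from 17 embryos of 8 litters. The paper removed 1 WT lung of the Y130A litters as an outlier. It also describes 1 WT lung of the S226A comparison as a possible outlier for transposable elements, and all 4 of those lungs were kept here. Litters 1 to 4 came from the S226A crosses and litters 5 to 8 from the Y130A crosses, and values are given below in this order.

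Cytochrome P450 enzymes are haem proteins that oxidise small lipophilic molecules. Families 1 to 3 mostly act on drugs and other foreign compounds, family 4 on fatty acids and eicosanoids, and the remaining families on sterols, bile acids, steroid hormones, retinoic acid and vitamin D. In the liver, these genes are switched on in a staged order around birth, with fetal forms giving way to adult forms, whereas lung airway cells and neurons use small sets of their own.

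Total counts per library ran from 15722147 to 54885020, with a median of 20341531 in the S226A litters and 44523912 in the Y130A litters, so members near the floor were measured more precisely in the latter. The labelled tissues held their defining markers: Alb was at 86812 CPM or more in every liver and at most at 852 CPM in any lung or brain, and Sftpc and Tubb3 were highest in lung and brain. Daxx itself ran from 27.2 to 50.9 CPM (count per megaread of scaled library size) over all libraries, which does not check the genotype because both alleles are point mutations. Transcripts of squamous epithelium summed to 1202 CPM in the WT liver of litter 2 and 774 CPM in the Y130A liver of litter 5, against at most 10.8 CPM in the other 14 livers. In whole tissue, fewer cells of a type and less RNA per cell cannot be told apart.

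Liver was the tissue with most of the members. The CPM summed over the 97 members was 3812 to 5493 in the 8 WT livers, 365 to 493 in the 7 WT lungs and 383 to 438 in the 8 WT brains. In WT libraries, 47 members reached 1 CPM per kilobase of exon (RPKM) in liver, 20 in lung and 13 in brain. At 10 RPKM or more there were 29 members in liver, 3 in lung (Cyp2f2, Cyp4b1 and Cyp20a1) and 1 in brain (Cyp51).

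**Figure D1:**
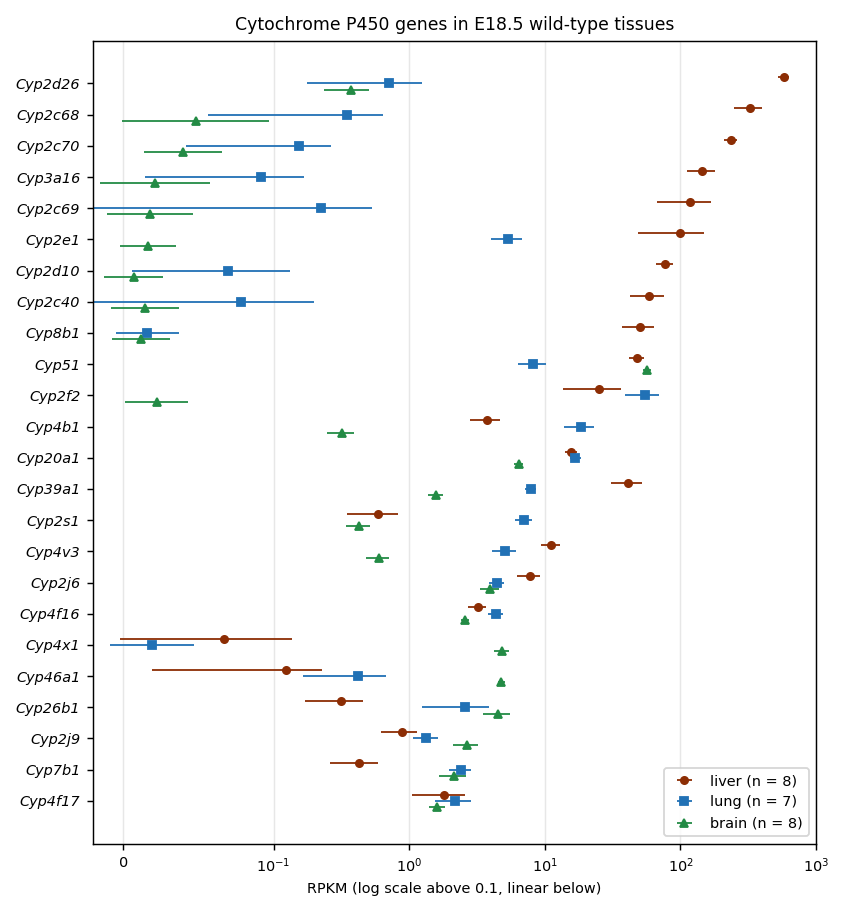
RPKM (x axis, logarithmic above 0.1 and linear below) of the members among the 10 highest of at least 1 tissue (y axis) in WT liver, lung and brain. Points are means and bars SD over 8, 7 and 8 libraries. Cyp2d26 stood highest in liver at 577 RPKM, Cyp2f2 in lung at 54.4 and Cyp51 in brain at 56.5.

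Families 2 and 3 dominated the fetal liver. Cyp2d26 led at 577 ± 50.5 RPKM (SD, n = 8), followed by Cyp2c68 at 325 ± 77.2 and Cyp2c70 at 235 ± 26.5, the last known as a bile acid hydroxylase of mice. The ranges of Cyp2d26 (478 to 653 RPKM) and Cyp2c68 (224 to 426 RPKM) did not overlap, whereas Cyp2c68 and Cyp2c70 (194 to 270 RPKM) overlapped. Cyp3a16, a fetal and neonatal form of the Cyp3a cluster, followed at 145 ± 33.6 RPKM. Its adult counterpart Cyp3a11 was at 33.6 ± 12.4 RPKM and Cyp3a25 at 34.96 ± 24.9 RPKM. The gap between Cyp3a16 and Cyp3a11 depends on the length used: the exons of all Cyp3a11 transcripts cover 5093 bases, its longest protein-coding transcript has 2344 bases, and without division by length the means were 251 and 171 CPM. Cyp2c69 (118 ± 51.1 RPKM) and Cyp2e1 (98.8 ± 50.2 RPKM), the ethanol-oxidising form, were among the most variable of the leading members. The top 10 was completed by Cyp2d10 (76.8 ± 10.9 RPKM), Cyp2c40 (58.6 ± 16.4 RPKM), Cyp8b1 (50.1 ± 13.2 RPKM) and Cyp51 (47.9 ± 6.26 RPKM). Its lower places also depend on the length used, through Cyp3a11 and Cyp2a12. The exons of Cyp2a12 cover 3457 bases, and its longest protein-coding transcript has 1681.

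Several forms known from adult mouse liver were near the floor at this age. Cyp1a2, which oxidises aromatic amines, stood at 0.285 ± 0.230 RPKM in WT liver. Cyp2c29 was at 0.0261 ± 0.0501 RPKM and Cyp2c50 at 0.0459 ± 0.0645 RPKM, and neither passed the filter on low counts. Cyp2b10, the classical target of the receptor CAR, was at 0.0376 ± 0.0608 RPKM in liver and at 1.32 ± 0.597 RPKM in lung. By contrast, several bile acid genes were already well above the floor, although Cyp7b1, described below, was low in liver. Cyp7a1, the rate-limiting enzyme of bile acid synthesis, stood at 43.0 ± 6.87 RPKM in WT liver, and Cyp27a1, the first enzyme of the alternative route, at 32.9 ± 6.78 RPKM. Cyp39a1, a 24-hydroxycholesterol hydroxylase, was at 41.2 ± 10.5 RPKM.

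By subfamily, the make-up of the transcripts differed from tissue to tissue. The 14 Cyp2c members held 29.9% of the summed CPM in WT liver (22.1 to 34.4% over libraries), the 8 Cyp2d members 25.8% and the 9 Cyp3a members 11.9%. In WT lung, Cyp2f2 alone held 24.8% (19.9 to 31.0%), followed by Cyp4b1 with 9.43% and Cyp20a1 with 8.90%. In WT brain, Cyp51 held 61.4% (58.5 to 64.9%).

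**Figure D2:**
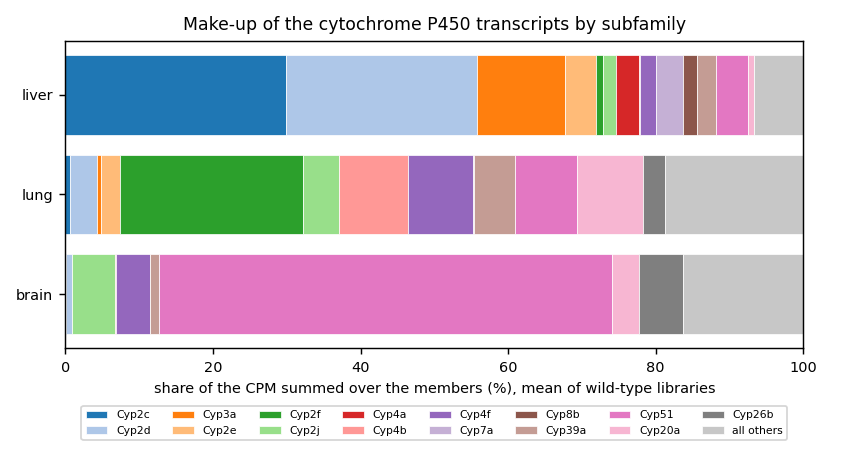
Share of the CPM summed over the 97 members (x axis, %) held by each subfamily in WT liver, lung and brain (y axis), as means over libraries. Cyp2c, Cyp2d and Cyp3a fill most of the liver bar, whereas Cyp51 fills 61.4% of the brain bar.

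The difference between tissues was tested in WT libraries with edgeR, at an adjusted p below 0.01 and an absolute log2 fold change above 1. Of the 75 members tested, 49 were higher in liver than in lung and 9 were lower. Among all genes, 19.5% were higher and 25.2% lower in this comparison. Against brain, 57 members were higher in liver and 8 lower, where the percentages over all genes were 27.5% and 30.2%. Lung exceeded brain for 20 members and fell below it for 9, against 26.4% and 23.5% of all genes. These counts leave out the 22 members that were low everywhere, and a member expressed in a single tissue entered only through that tissue. In all, 48 members were higher in liver than in both other tissues, 5 in lung and 5 in brain, and 17 had another pattern. All 9 Cyp3a members were among the 48, as were 22 of the 31 tested members of family 2 other than Cyp2r1, which was counted with the vitamin D members.

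The 5 members highest in lung were Cyp2f2, Cyp4b1, Cyp2s1, Cyp2b10 and Cyp2ab1. Cyp2f2, the naphthalene-bioactivating enzyme of club cells, was at 54.4 ± 15.1 RPKM in WT lung (n = 7) and at 24.9 ± 11.3 RPKM in WT liver. The liver minus lung log2 difference was -1.08 ± 0.17 (SE, edgeR adjusted p = 5.07e-07). Cyp4b1, which oxidises fatty acids and furans, ran from 12.1 to 24.7 RPKM in the WT lungs, with a liver minus lung difference of -2.26 ± 0.17 (edgeR adjusted p = 9.03e-16). Cyp2s1, an epithelial form, was at 7.02 ± 0.962 RPKM in lung and differed from liver by -3.56 ± 0.19 (edgeR adjusted p = 6.83e-21). Cyp39a1 and Cyp51 were also among the 10 highest in lung, at 7.91 ± 0.725 and 8.22 ± 1.91 RPKM, although both were several-fold higher in liver.

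The 5 members highest in brain were Cyp46a1, Cyp4x1, Cyp2u1, Cyp2j9 and Cyp19a1. Cyp46a1, the neuronal cholesterol 24-hydroxylase, was at 4.77 ± 0.285 RPKM in WT brain (n = 8), 0.417 ± 0.254 in lung and 0.122 ± 0.103 in liver. Cyp4x1 was at 4.84 ± 0.591 RPKM in brain, with a lung minus brain log2 difference of -7.95 ± 0.53 (edgeR adjusted p = 1.93e-17). Cyp19a1, the aromatase that makes oestrogens, was detected in brain at only 0.0710 ± 0.0298 RPKM. Cyp51, the lanosterol demethylase of cholesterol synthesis, was at 56.5 ± 3.64 RPKM in brain and 47.9 ± 6.26 RPKM in liver. Its liver minus brain difference of -0.23 ± 0.11 did not reach the fold limit (edgeR adjusted p = 0.046), whereas lung was lower than brain by 2.77 on the log2 scale (SE 0.13; edgeR adjusted p = 6.47e-23).

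Steroid hormone, vitamin D and retinoic acid members were low in all 3 tissues, with few exceptions. Cyp17a1, the 17-hydroxylase of steroid synthesis, was at 2.19 ± 0.498 RPKM in WT liver. Cyp11a1, the side-chain cleavage enzyme, was at 0.0631 RPKM in liver, 0.0607 in lung and 0.101 in brain, and Cyp11b1, Cyp11b2 and Cyp21a1 did not pass the filter. Of the vitamin D members, the 25-hydroxylase Cyp2r1 was at 0.992 ± 0.483 RPKM in liver, the 1-hydroxylase Cyp27b1 at 0.139 ± 0.134, and the catabolic Cyp24a1 did not pass the filter. Cyp26b1, which degrades retinoic acid, was at 4.52 ± 1.04 RPKM in brain, 2.56 ± 1.33 in lung and 0.314 ± 0.143 in liver. Its relatives Cyp26a1 and Cyp26c1 stood below 1 RPKM in each tissue, at 0.237 ± 0.169 and 0.432 ± 0.399 RPKM in liver. The oxysterol hydroxylase Cyp7b1 was higher in lung (2.42 ± 0.452 RPKM) and brain (2.13 ± 0.476 RPKM) than in liver (0.425 ± 0.165 RPKM).

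Short stretches of promoter are given for 4 Cyp2c and 2 Cyp3a members, because these are neighbouring copies whose liver values in mutants or litters are compared with each other. The letters are from RefSeq (GRCm38.p6). Each stretch ends before the start of transcription annotated there, and capitals mark CAAAGTCCA, the consensus letters bound by the hepatocyte factor HNF4A, or the aligned letters of Cyp3a44. Positions within these 9 letters are counted from 1 at their 5′ end.
Cyp2c40: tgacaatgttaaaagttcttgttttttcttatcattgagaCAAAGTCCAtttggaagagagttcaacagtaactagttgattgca
Cyp2c69: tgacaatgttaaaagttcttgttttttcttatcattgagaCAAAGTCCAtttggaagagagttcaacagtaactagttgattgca
Cyp2c67: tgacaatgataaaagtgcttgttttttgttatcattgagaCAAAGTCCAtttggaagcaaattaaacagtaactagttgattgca
Cyp2c68: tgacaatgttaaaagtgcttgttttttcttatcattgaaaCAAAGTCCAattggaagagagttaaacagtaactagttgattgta
Cyp3a16: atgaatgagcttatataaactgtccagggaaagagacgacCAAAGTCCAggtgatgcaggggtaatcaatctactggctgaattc
Cyp3a44: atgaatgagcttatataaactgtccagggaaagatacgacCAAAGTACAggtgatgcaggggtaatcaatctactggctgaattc
All 6 lie on the minus strand: Cyp2c40 at chr19:39812815-39812899, Cyp2c69 at chr19:39886800-39886884, Cyp2c67 at chr19:39649123-39649207, Cyp2c68 at chr19:39741134-39741218, Cyp3a16 at chr5:145469778-145469862 and Cyp3a44 at chr5:145805925-145806009. The stretches of Cyp2c40 and Cyp2c69 were equal at 85 of 85 bases, and Cyp2c40 and Cyp2c67 at 78 of 85. Cyp3a16 and Cyp3a44 were equal at 83 of 85 bases, 1 of the 2 differences being the substitution C7A within the 9 letters of Cyp3a16. Promoter windows of 300 bases were listed for 75 of the 97 members. On either strand, CAAAGTCCA was found in 11 of their 85 windows (12.9%), against 0.475% of all 32851 windows. Among members highest in liver it was in 10 of 41 windows. Apart from Cyp8b1, all matches lie in Cyp2c and Cyp3a members, and near copies such as Cyp2c40 and Cyp2c69 are not independent. This search was chosen after the windows had been read, and a match is a description of the letters only.

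In S226A liver, 4 of the 75 members changed against WT littermates at an adjusted p below 0.05 (edgeR), 1 up and 3 down, that is 5.33% of the members tested. Over all genes, 11.7% were called in this comparison, 6.14% up and 5.54% down. The median log2 difference was -0.18 over the members and -0.01 over all genes. Hepatocyte markers (10 of 10 found) summed to 213130 to 219697 CPM in these WT livers and to 175799 to 207685 CPM in S226A livers, without overlap. Alb alone, a large part of that sum, was at 115470 to 120609 and 86812 to 108508 CPM. Afp, another of the 10, had a higher mean in S226A, at 31399 to 37943 CPM in WT and 35078 to 40849 CPM in S226A livers. Liver enzymes that rise around birth summed to 4793 to 5479 and 3776 to 5356 CPM, with overlapping groups. The part of these markers in the lower values of liver members was not tested. The members that passed were Cyp39a1, Cyp26b1 and Cyp2s1, which were lower, and Cyp4f18, which was higher. Under stringent criteria (adjusted p below 0.01, absolute log2 above 1 and SE below 1), 2 members passed, against 2.1% of all genes. With litter as a block, 9 members passed, against 13.2% of all genes: Cyp51, Cyp20a1, Cyp4a14, Cyp4b1 and Cyp2a4 joined them, all lower.

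Cyp39a1 was the member with the smallest p. In the WT livers of litters 1 to 4, it was at 178, 111, 153 and 148 CPM, and in their S226A littermates at 116, 74.6, 88.5 and 106 CPM. The mutant was below its own littermate in 4 of 4 litters, and the groups overlapped by 1 library each. The log2 difference was -0.62 ± 0.13 (edgeR adjusted p = 0.00067), and it passed with every library left out in turn. In Y130A liver, Cyp39a1 showed no such difference, with 80.8, 105, 103 and 126 CPM in WT and 104, 103, 114 and 97.1 CPM in mutant livers of litters 5 to 8 (log2 0.01 ± 0.13). The 2 mutant effects differed by -0.63 ± 0.18 on the log2 scale (edgeR adjusted p = 0.027). The 2 sets of WT livers differed as well: WT livers of the Y130A litters were lower by 0.51 on the log2 scale (SE 0.13; edgeR adjusted p = 0.0071), so the S226A mean of 96.3 ± 18.4 CPM lay near that of the other WT set, at 104 ± 18.6 CPM. Cyp39a1 lies on chromosome 17, 9752 kb from Daxx.

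Cyp4f18 was the member that rose. This gene encodes a fatty acid hydroxylase that degrades leukotriene B4 and is known from neutrophils. WT livers of litters 1 to 4 were at 6.51, 4.47, 4.67 and 5.39 CPM, and S226A livers at 15.2, 13.3, 15.9 and 8.36 CPM, without overlap. The log2 difference was 1.32 ± 0.31 (edgeR adjusted p = 0.003; exact permutation p = 0.0286, the smallest 4 against 4 can give). Of 68 such permutation tests over members and tissues, 5 reached this value, the other 4 being Cyp4f18 in S226A lung, Cyp26b1 and Cyp1a2 in S226A liver and Cyp2c40 in Y130A liver, and none passed after Benjamini-Hochberg adjustment (smallest adjusted exact permutation p = 0.324). Neutrophil markers summed to 2884 to 3559 CPM in these WT livers and 8289 to 9053 CPM in S226A livers, and macrophage markers to 1013 to 1180 and 281 to 401 CPM. Their part in the result was not tested.

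In lung, Cyp4f18 went the other way. It was at 4.45, 5.21, 6.06 and 5.48 CPM in the WT lungs of litters 1 to 4 and at 2.43, 2.61, 2.24 and 1.90 CPM in S226A lungs, again without overlap. The log2 difference was -1.21 ± 0.32 (edgeR adjusted p = 0.039; exact permutation p = 0.0286). Neutrophil markers in S226A lungs were higher, at 178 to 235 CPM against 74.7 to 122 CPM in WT, and macrophage markers lower, at 128 to 158 against 164 to 221 CPM, and their part in the result was not tested. This call is close to the threshold: it was lost in 6 of 8 fits that left out 1 library (adjusted p up to 0.119), and in the fit of only the lungs compared (adjusted p = 0.068). Cyp4f18 was the only member that passed in S226A lung, where 1.88% of all genes were called, 1.02% as lower. With litter as a block, Cyp2d9, which is near the floor in lung, passed too, with 3.62% of all genes called. Cyp2d9 had 7, 12, 0 and 0 reads in the WT lungs and 0 in each S226A lung, and entered the test through liver. Alb was at 0.052, 0.241, 0.047 and 0.0059% of the liver level in these WT lungs. In the S226A lungs it was at 0.0046, 0.123, 0.056 and 0.012%. The part of liver RNA in the call on Cyp2d9 was not tested.

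Cyp26b1 had the largest fold change of the 4 members that passed, at a low level. WT livers of litters 1 to 4 had 39, 39, 8 and 15 reads (2.40, 2.56, 0.575 and 0.919 CPM), and S226A livers had 6, 0, 0 and 3 reads (0.395, 0, 0 and 0.199 CPM). The groups did not overlap, and the log2 difference was -3.57 ± 0.87 (edgeR adjusted p = 0.004; exact permutation p = 0.0286). The highest WT value, in litter 2, came from the library with squamous transcripts, and without the livers that hold them the difference was -3.27 (edgeR adjusted p = 0.0102). In the Y130A litters, WT livers were at 2.09, 2.23, 1.74 and 0.939 CPM and mutant livers at 2.45, 0.541, 0.496 and 0.619 CPM, so that 3 of 4 mutants lay below every WT liver and the highest mutant was the library with squamous transcripts (log2 -0.74 ± 0.49, edgeR adjusted p = 0.76). The difference between the 2 mutant effects did not pass (-2.82 ± 1.06, edgeR adjusted p = 0.11), but did with litter as a block (-2.69, edgeR adjusted p = 0.032).

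Cyp2s1 was at 3.19, 5.45, 1.65 and 2.51 CPM in WT and 2.50, 1.11, 0.743 and 2.12 CPM in S226A livers (log2 -1.02 ± 0.30, edgeR adjusted p = 0.019). The groups overlapped, and the highest WT value was that of litter 2, whose library holds squamous epithelial transcripts. Without that library the log2 difference was -0.64 and did not pass (edgeR adjusted p = 0.185). Without the S226A liver of litter 2 or litter 3, or with only the livers compared (adjusted p = 0.302), it did not pass either.

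Among the members added by the litter block, Cyp51 was at 216, 188, 194 and 240 CPM in WT livers and 159, 147, 152 and 170 CPM in S226A livers, with no overlap between groups. The mutant was lower in 4 of 4 litters, with log2 -0.42 ± 0.16 (edgeR adjusted p = 0.082) without the block and an adjusted p of 0.0053 with it. Cyp20a1, an orphan member of the family, was lower in 4 of 4 litters, at 26.0 to 30.3 CPM against 30.9 to 35.8 CPM (adjusted p = 0.055 without and 0.020 with the block). The main bile acid genes showed no such change: Cyp7a1 differed by -0.13 ± 0.22 and Cyp8b1 was at 102 ± 12.0 CPM in S226A against 107 ± 10.4 CPM in WT livers (SD, n = 4).

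**Figure D3:**
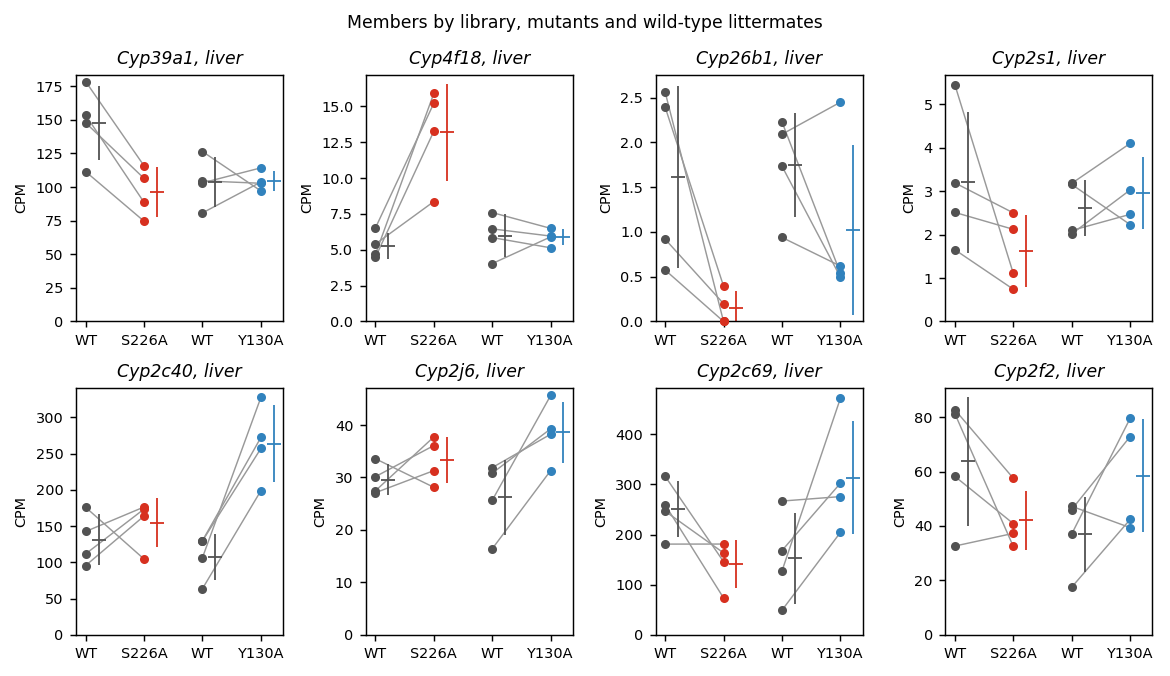
CPM (y axis) of 8 members in livers of WT littermates and S226A or Y130A mutants (x axis). Each point is a library, grey lines join littermates, and bars beside the points are means with SD (n = 4). For Cyp4f18 and Cyp26b1 the S226A and WT points do not overlap, and for Cyp2c40 the Y130A points lie above all WT points.

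In Y130A liver, the members that passed were Cyp2c40 and Cyp2j6, both higher, that is 2.67% of the members tested against 0.272% of all genes called and 0.207% called as higher. With litter as a block, Cyp2j5 and Cyp2c67 passed as well, against 0.580% of all genes. The median log2 difference over the members was 0.15, and over all genes 0.00. Hepatocyte markers summed to 228256 to 265630 CPM in these WT livers (median 241247) and to 238673 to 266389 CPM in Y130A livers (median 254709), with overlapping groups, and their part in the values of liver members was not tested. None passed under the stringent criteria, which called 0.077% of all genes.

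Cyp2c40, an arachidonic acid hydroxylase, was at 63.6, 130, 107 and 130 CPM in the WT livers of litters 5 to 8. Their Y130A littermates were at 199, 272, 328 and 257 CPM, above every WT liver. The log2 difference was 1.30 ± 0.30 (edgeR adjusted p = 0.037; exact permutation p = 0.0286), and with the litter block 1.33 (edgeR adjusted p = 0.0063). The call was lost in 5 of 8 fits that left out 1 library (adjusted p up to 0.129), with DESeq2 (adjusted p = 0.78) and with only the livers compared (adjusted p = 0.091). Of the 75-base words of the Cyp2c40 transcript, 57.1% also occur in other genes, mostly Cyp2c69, and counting of uniquely mapped reads leaves such reads out, so its level is uncertain. The same limit holds for Cyp2c69 (43.2% of its words shared), Cyp2c67 (36.01%) and Cyp2c68 (28.5%).

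The close copies of Cyp2c40 did not pass in these litters without the block. Cyp2c67 was at 4.00, 5.89, 6.21 and 7.34 CPM in WT and 11.0, 14.2, 20.3 and 18.6 CPM in Y130A livers, without overlap (log2 1.45 ± 0.44, edgeR adjusted p = 0.19, and 0.042 with the block). Cyp2c69 was at 48.9, 168, 127 and 267 CPM in WT and 204, 302, 472 and 276 CPM in Y130A livers, higher in 4 of 4 litters with overlapping groups (log2 1.04 ± 0.37, edgeR adjusted p = 0.28). Cyp2c68, whose printed stretch differs from that of Cyp2c40 at 5 of 85 bases, was at 553 to 734 CPM in WT and 580 to 938 CPM in Y130A livers, with overlapping groups. In S226A liver neither Cyp2c69 nor Cyp2c40 passed. Cyp2c69 was at 181, 260, 316 and 247 CPM in WT and 181, 73.5, 146 and 163 CPM in S226A (log2 -0.83 ± 0.38, edgeR adjusted p = 0.16), and Cyp2c40 differed by 0.23 ± 0.29.

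The Cyp2j genes encode epoxygenases of arachidonic acid. Cyp2j6 was at 16.4, 30.8, 25.6 and 31.9 CPM in WT and 31.3, 39.3, 45.6 and 38.2 CPM in Y130A livers. It was higher in 4 of 4 litters, and only the lowest mutant overlapped the WT group (log2 0.56 ± 0.13, edgeR adjusted p = 0.043, lost in 5 of 8 fits without 1 library, where it reached 0.159, and with only the livers compared). Cyp2j5 was at 18.2, 50.8, 38.6 and 76.2 CPM in WT and 66.9, 125, 145 and 96.7 CPM in Y130A livers (log2 1.24 ± 0.35, edgeR adjusted p = 0.13, and 0.0089 with the block). The WT liver of litter 5 was the lowest WT library for Cyp2c40, Cyp2c67, Cyp2c69, Cyp2j5, Cyp2j6 and Cyp2f2, and without it Cyp2j6 differed by 0.39 and Cyp2c40 by 1.11.

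**Figure D4:**
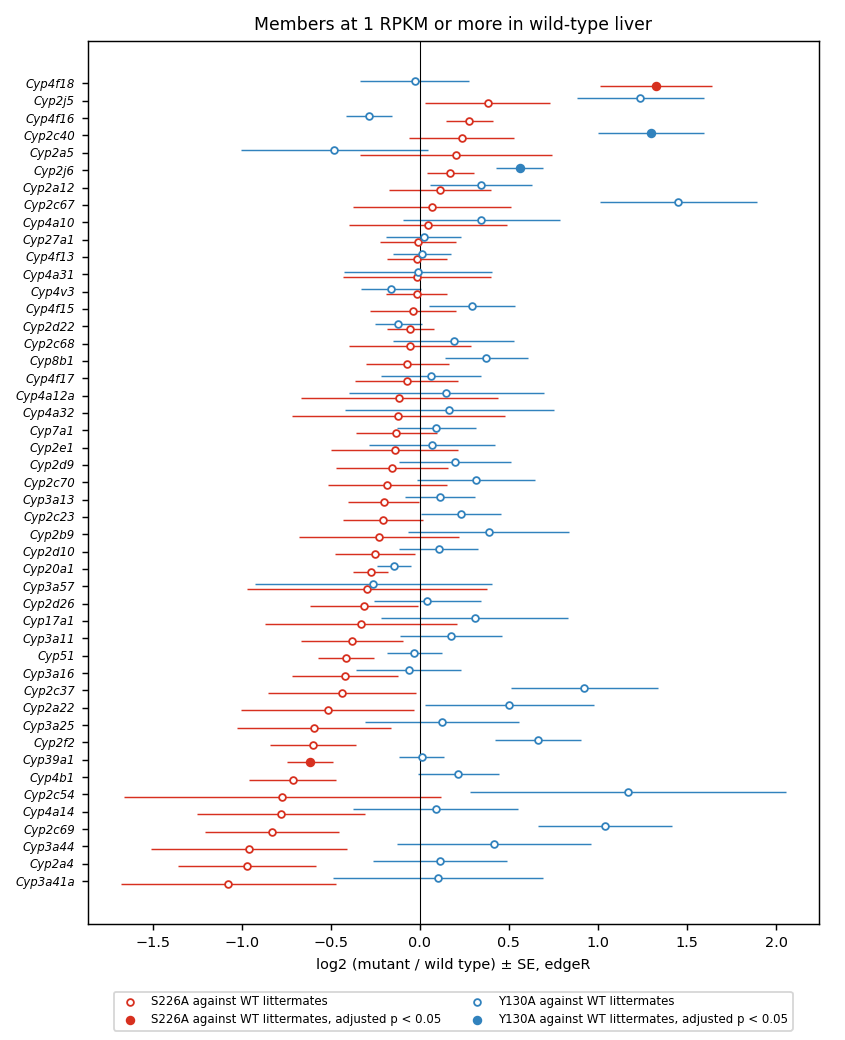
Log2 differences between mutant and WT livers (x axis, edgeR, bars SE) for the 47 members at 1 RPKM or more in WT liver (y axis), ordered by the S226A difference. Filled points passed an adjusted p of 0.05. In S226A 38 of the 47 lay below 0, as did 51.6% of all genes tested, and in Y130A 37 of the 47 lay above 0, as did 49.7% of all genes tested.

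The effects of the 2 alleles in liver differed for 3 members, Cyp2f2, Cyp2c69 and Cyp39a1, all with a lower effect in S226A (4% of members tested, against 5.9% of all genes and 2.71% with a lower effect). With litter as a block 7 passed, against 7.11% of all genes. Cyp2f2 was at 32.6, 81.3, 82.7 and 58.2 CPM in WT and 37.3, 32.5, 57.5 and 40.9 CPM in S226A livers. In the Y130A litters it was at 17.5, 46.0, 37.0 and 47.2 CPM in WT and 42.4, 72.9, 79.6 and 39.4 CPM in mutant livers. Neither comparison passed alone, but the effects differed by -1.26 ± 0.34 (edgeR adjusted p = 0.018), and those on Cyp2c69 by -1.87 ± 0.53 (edgeR adjusted p = 0.027). In fits of only the livers compared, none of the 3 passed (adjusted p = 0.153 for Cyp2f2, 0.0535 for Cyp2c69 and 0.169 for Cyp39a1). Of 16 fits that left out 1 library, the call was lost in 2 for Cyp2f2, 5 for Cyp2c69 and 5 for Cyp39a1, and DESeq2 did not call Cyp2c69 (adjusted p = 0.51).

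No member passed in S226A brain, Y130A lung or Y130A brain with edgeR or DESeq2, where edgeR called 0.243%, 0.0178% and 0.00592% of all genes. At an unadjusted p below 0.05 there were 2, 9 and 2 of the 75 members, respectively, against 2.27%, 2.92% and 2.22% of all genes. The Y130A lung of litter 5 held the most liver RNA of the lungs, with hepatocyte markers at 1523 CPM and 118 reads of Cyp3a16, and the part of this in the 9 members was not tested. The effects of the alleles did not differ for any member in lung or brain with edgeR (0.308% and 0.0829% of all genes), with 5 and 2 members at an unadjusted p below 0.05 (9.8% and 2.29% of all genes), while DESeq2 called Cyp4f18 in lung. In brain, Cyp51 was at 250, 228, 240 and 234 CPM in WT and 249, 220, 223 and 236 CPM in S226A libraries, and at 250, 267, 249 and 276 CPM in WT and 251, 263, 261 and 267 CPM in Y130A libraries. Cyp46a1 ran from 12.8 to 17.3 CPM over the 16 brains. In lung, Cyp4b1 was at 27.4, 35.5 and 36.04 CPM in the WT libraries of litters 5 to 7 and at 36.06, 43.8, 60.5 and 38.8 CPM in the Y130A libraries of litters 5 to 8, without overlap, but with an exact permutation p of 0.0571.

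Cyp4f genes and Cyp21a1 are the members nearest to the edited gene. Daxx lies at 33909414 to 33915590 on chromosome 17, and 9 members lie within 2 Mb of it. The closest were Cyp21a1 (886 kb), Cyp4f13 (962 kb) and Cyp4f14 (992 kb), followed by Cyp4f15, Cyp4f40, Cyp4f37, Cyp4f16, Cyp4f17 and Cyp4f39 at 1206 to 1416 kb. Of these, 6 were tested in the 6 mutant comparisons, and none of the 36 tests passed (smallest adjusted p 0.186, for Cyp4f16 in S226A liver). Over all genes, 11.7% were called in S226A liver, 1.88% in S226A lung and at most 0.272% in the other comparisons. With 6 genes, the absence of a call therefore tells little. Cyp4f18 is not part of that cluster, as it lies on chromosome 8.

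Differences between litters were as large as those between genotypes for several liver members. Sex and litter cannot be told apart here, because mutants and controls were matched by both. Cyp2e1 was at 119 CPM in the WT and 59.3 CPM in the S226A liver of litter 2, whereas litters 1, 3 and 4 were at 253 to 364 CPM in both genotypes. In litter 5 it was at 46.7 and 97.6 CPM, below the livers of litters 6 to 8 at 120 to 234 CPM. Cyp3a25 showed the same order, at 57.4 and 31.5 CPM in litter 2 and 5.27 and 16.8 CPM in litter 5, where it was the lowest of the Y130A crosses in both genotypes. Cyp3a16 in litter 2 was at 186 and 136 CPM, each the lowest of its group, and Cyp3a44 in litter 2 was at 6.05 and 3.09 CPM, again the lowest of each group. The same litters had the lowest CPM summed over all members in each of the 4 liver groups, at 4541 and 3341 CPM in the WT and S226A livers of litter 2 and at 3812 and 5073 CPM in the WT and Y130A livers of litter 5. Litter 2 (WT) and litter 5 (Y130A) are also the litters with squamous transcripts, whose part in these values was not tested.

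**Figure D5:**
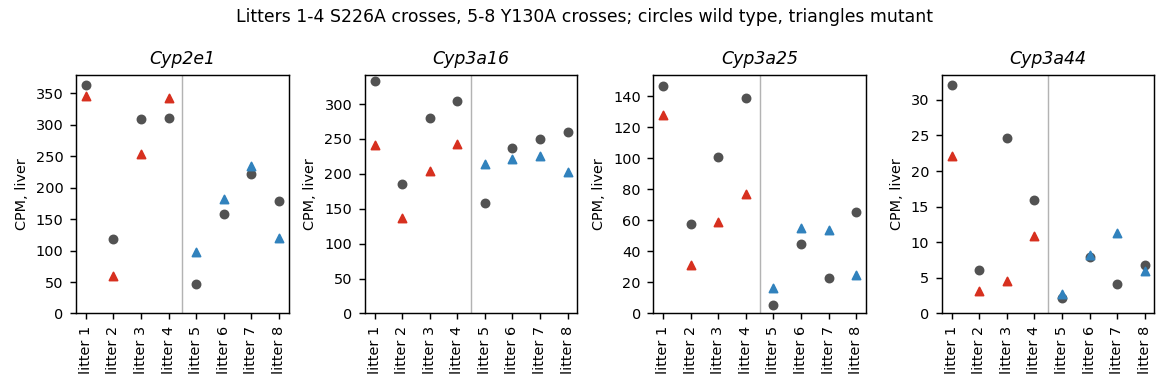
CPM in liver (y axis) of Cyp2e1, Cyp3a16, Cyp3a25 and Cyp3a44 by litter (x axis); circles are WT, triangles mutants. Both littermates of litter 2 are low for all 4 genes, and both of litter 5 are low for Cyp2e1, Cyp3a25 and Cyp3a44.

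The WT libraries of the 2 sets of litters, which differ in depth, also differed for some members. In liver, 7 of the 75 members were lower in the Y130A litters and 0 higher, that is 9.33% of members against 13.1% of all genes, 3.97% lower and 9.11% higher. They were Cyp39a1, Cyp2ab1, Cyp3a25, Cyp3a44, Cyp2f2, Cyp2b9 and Cyp2r1. Cyp3a25 was at 147, 57.4, 101 and 139 CPM in the first set and at 5.27, 44.8, 23.0 and 65.2 CPM in the second (log2 -1.69 ± 0.44, edgeR adjusted p = 0.011). Cyp2b9 was at 21.2, 21.8, 30.0 and 23.5 CPM in the first and 4.33, 6.08, 15.5 and 10.3 CPM in the second, without overlap (log2 -1.41 ± 0.46, edgeR adjusted p = 0.04). Of 8 fits that left out 1 library, the call was lost in 5 for Cyp2b9 (adjusted p up to 0.136), 6 for Cyp2r1, 4 for Cyp2f2, 4 for Cyp3a44 and 1 for Cyp39a1. Cyp2ab1 had 0, 7, 0 and 13 reads in the first set and no read in the second. Without the WT liver of litter 5, 2 of the members passed. The share of all genes called in that fit is not given, so the drop is not a result about the members. In lung, Cyp4f13, Cyp2f2 and Cyp4a12a were lower in the Y130A litters, where 20.1% of all genes differed and 10.8% were lower. Cyp2f2 was at 127, 120, 143 and 145 CPM in the first set and 74.3, 79.0 and 83.5 CPM in the second, without overlap (log2 -0.76 ± 0.26, edgeR adjusted p = 0.032). The club cell marker Scgb1a1 was at 113 to 241 CPM in the first set and 55.0 to 115 CPM in the second, and its part in the result was not tested. Of 7 fits that left out 1 library, the call on Cyp2f2 was lost in 5 (adjusted p up to 0.108), that on Cyp4a12a in 4 and that on Cyp4f13 in 2. Cyp4a12a had reads in 1 of these 7 lungs, the WT lung of litter 2, and without it there was no difference left to test. No member passed in brain with edgeR over all libraries or DESeq2, where edgeR called 5.98% of all genes. At an unadjusted p below 0.05 there were 2 members, against 18.4% of all genes, and 2 passed in the edgeR fit of only the libraries compared, against 24.8% of all genes. Cross, litter and sequencing depth cannot be told apart in this comparison.

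Genes that work with the cytochromes P450 were read from 2 lists chosen for this purpose. Of 12 partners, which supply electrons or haem or are related enzymes, 11 were tested, and 2 of them passed in S226A liver, where 11.7% of all genes did. In S226A liver, Alas1, the rate-limiting enzyme of haem synthesis, rose by 0.68 on the log2 scale (SE 0.08; edgeR adjusted p = 5.19e-08), and Tbxas1, the thromboxane synthase, fell by 0.53 (SE 0.16; edgeR adjusted p = 0.023). The part of the higher neutrophil and lower macrophage markers of these livers, given above for Cyp4f18, was not tested for either gene. The effect on Alas1 differed from that in Y130A liver by 0.77 ± 0.12 (edgeR adjusted p = 1.71e-05), whereas the reductase Por differed by -0.23 ± 0.11 in S226A liver and did not pass. Of 29 transcriptional regulators, none passed in the liver of either mutant, where 11.7% (S226A) and 0.272% (Y130A) of all genes did. Hnf4a, at 100.1 ± 8.87 RPKM in WT liver and 0.0727 ± 0.0454 RPKM in WT lung, differed by -0.10 ± 0.22 in S226A and by -0.05 ± 0.22 in Y130A liver. The 1 regulator that passed in any lung comparison of mutant with WT was Srebf2, lower in S226A lung, where 1.88% of all genes passed.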

How the data were processed

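Gene counts were deposited by the authors as 1 table of raw reads per gene for 47 libraries. Per the labels and the methods of the study, reads were trimmed with Trim Galore 0.6.5, aligned to GRCm38.p6 with STAR 2.6.0b and counted per gene (GENCODE annotation). Here, exon lengths and positions were taken from GENCODE on GRCm38, on which 20424 of 20456 genes matched. Counts were fitted with edgeR 4.0.16 (R 4.3.3) over all libraries, with TMM scaling, filterByExpr (minimum count 10, total 15), 1 coefficient per group and quasi-likelihood tests with Benjamini-Hochberg adjustment over 16892 genes. SE was derived from the F statistic. CPM used TMM library sizes, and RPKM divided CPM by exon length in kilobases. Exact permutation tests were two-sided. Titles give the litter: residuals of littermates correlated above 0.1 in 18 of 23 pairs, against 5 of 69 pairs of other embryos, so litter was added as a block in a second fit. Alternatives were DESeq2 1.42.0, its size factors, no filter, only the libraries compared, other thresholds and leaving out each library. None of 69 pairs of libraries within a group agreed within sampling noise.

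Members and lists were chosen with earlier results of these data known. Named were the 10 highest members of each tissue, members that passed between genotypes, members within 2 Mb of Daxx, and sterol, steroid, vitamin D and retinoic acid members. Cyp2c67, Cyp2j5, Cyp3a11, Cyp3a25, Cyp3a44, Cyp2b9, Cyp2g1, Cyp2a5, the adult forms, members that passed only with the block or between litter sets, and the promoters shown were named after their values were seen. Total counts limit the precision of members near the floor, and with 4 libraries a group exact tests cannot go below p = 0.0286. These tests permuted labels across litters. Permuted within 4 litter pairs, the smallest exact permutation p would be 0.125.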

Additional observations from a re-analysis of the deposited data

Results flagged for a closer look

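Single libraries stood apart from the other 3 of their group in 8 of 129 member and group combinations examined, where chance gives about 1 in 20. That rate assumes continuous values. It does not apply where the other libraries had no read, as for Cyp4a12a in lung and Cyp2g1 in Y130A brain. In liver, Cyp26b1 was at 2.45 CPM in the Y130A library of litter 5, with the next at 0.619 CPM, and this is the Y130A liver with 774 CPM of squamous transcripts. Cyp2b9 was at 26.6 CPM in the Y130A library of litter 7, with the next at 7.74 CPM. In lung, Cyp4a12a was at 0.404 CPM in the WT library of litter 2 and at 0.0668 CPM in the Y130A library of litter 5, and had no read in the other libraries of those groups. Cyp4a12a is a liver member, and these 2 lungs had the most liver RNA of their groups, with Alb at 0.241% and 0.682% of the liver level. The part of squamous or liver RNA in these values was not tested. In brain, Cyp4x1 was low in 1 WT library of litter 5, at 16.7 CPM, with the next at 19.1 CPM.

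Nasal genes appeared in 2 mutant brains. Cyp2g1, an olfactory epithelium form, had 22 reads (0.909 CPM) in the S226A brain of litter 4 and 42 reads (0.854 CPM) in the Y130A brain of litter 8, and at most 1 read in each of the other 14 brains. Cyp2a5, which is also known from nasal mucosa, was at 2.68 CPM in the first and 2.62 CPM in the second, against 0.295 to 1.13 CPM elsewhere. The olfactory marker Omp was at 2.35 and 1.46 CPM in these libraries and at most 0.630 CPM in the others, and the nasal secretory gene Bpifa1 at 3.10 and 2.99 CPM against at most 0.234 CPM. These genes were chosen after their values were seen, and their part in the levels of Cyp2g1 and Cyp2a5 was not tested.

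The S226A and Y130A effects in liver differed by edgeR for Cyp2f2 by -1.26 on the log2 scale, for Cyp39a1 by -0.63 and for Cyp2c69 by -1.87, all with an effect in S226A below that in Y130A. None of the 3 passed in fits of only the livers compared, and DESeq2 did not call Cyp2c69 (adjusted p = 0.51). The calls were lost in 2 (Cyp2f2), 5 (Cyp39a1) and 5 (Cyp2c69) of 16 fits that left out 1 library.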

How the results depend on the processing

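Counts of members that passed depended on the setting in several comparisons. With litter as a block, 9 members in place of 4 passed in S226A liver, 2 in place of 1 in S226A lung, 4 in place of 2 in Y130A liver and 7 in place of 3 for the difference between the alleles in liver. DESeq2 gave 7 and 2 in S226A liver and lung (14.8% and 3.93% of all genes), 6 and 1 for the difference between the alleles in liver and lung (8.33% and 1.17%), and 4 and 5 for the WT litter sets in liver and lung (13.8% and 24%), where edgeR gave 7 and 3. With only the libraries compared, 0 passed in S226A lung (0.232% of all genes), 0 in Y130A liver (0.0349%), and 4, 1 and 2 between the WT litter sets in liver, lung and brain (3.65%, 1.81% and 24.8%). Stringent criteria left 2 in S226A liver (2.1% of all genes) and 0 in Y130A liver (0.077%). They also left 0 in S226A lung, between the WT litter sets in liver and in lung, and for the difference between the alleles in liver. For these latter comparisons the stringent share of all genes is not given. Leaving out 1 library gave 3 to 7 members in S226A liver, 0 to 1 in S226A lung, 0 to 2 in Y130A liver, 1 to 6 for the difference between the alleles in liver, and 2 to 10 and 0 to 3 between the WT litter sets in liver and lung. No share of all genes is given for these fits, so the ranges are not a result about the members. The cause of the changes in count was not tested. No paired analysis was possible for the WT litter sets because they share no litter. Tissue counts stayed within 1.5 times under every setting, and no member that passed changed direction. Level differences with no call could cross 0 without 1 library, as for Cyp2e1 in S226A liver (-0.67 to 0.29) and Cyp3a25 in Y130A liver (-0.27 to 0.86). Leaving out the 2 livers with squamous transcripts was chosen after seeing the data. Lower depth limits the S226A litters most.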
